A study of Neodesmus pupukensis with 4 samples.

Results

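The transcripts of a green microalga in the oldest sampled culture, harvested at 88 h, were compared with those of the culture harvested at 45 h. The members of the comparison were all assembled transcript sequences whose read counts averaged at least 10 over the 88 h and 45 h libraries, which gave 13938 of the 14905 sequences in the series. The 967 sequences left out had at most 19 reads in either library, and 183 of them had 0 reads in both. The cells were of strain UTEX2341, which the sample labels assign to Neodesmus pupukensis and the series' design text to Chlorella minutissima. All cultures were grown fed-batch in shaken flasks of the same medium volume and temperature, with no treatment that distinguishes them except the time of harvest. The series holds 4 libraries of total RNA from whole cells, at 14, 45, 57 and 88 h, and 1 library stands for each time. The 14 h library served here as the level from which the 45 h library departed. The 57 h library was a further reading. It entered the choice of no set except the abundance groups named below and the alternative with 1 sequence per component.

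Flask cultures of green algae pass through a phase of rapid division, slow down as nutrients and light become limiting, and reach a stationary state. Growing cells keep up the transcripts of photosynthesis, protein synthesis and division, and cells of ageing cultures often turn carbon toward storage lipid and starch. UTEX2341 is a strain studied for its lipid, and the series was designed to follow the expression of key enzymes during growth. None of the sequences is paired with a gene name or function in the files, so no enzyme or pathway could be scored and sequences are described by length and level. Identifiers have the form of Trinity assemblies, in which sequences with the same first part of the name form a component, usually the variants of 1 gene or of close relatives.

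The stated totals were 12077745 reads at 88 h and 11874560 at 45 h, and the counts on sequences summed to 15376509 and 16192136 reads. With 1 library per time there was no replicate check and no test, so every difference compares 2 libraries and was judged by size. Intervals are 95% exact conditional binomial intervals of a ratio. They cover counting error only and are too narrow where reads were counted on more than 1 sequence. The length of culture and any difference in preparation between single libraries cannot be told apart. In RNA from whole cultures, fewer cells that express a gene and less of its RNA per cell cannot be told apart either.

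On the deposited scale far more transcripts were lower than higher in the 88 h culture relative to the 45 h culture, while many of the most abundant ones were higher. The log2 ratio of RPKM, the reads scaled to sequence length and to the library total, was calculated with 0.5 read added to each count. By this measure the 88 h level was at least 2-fold higher for 1632 sequences, or 11.7% of the 13938, and at least 2-fold lower for 6078, or 43.6%. The remaining 6228 lay within 2-fold. The median log2 ratio was -0.78, with lower and upper quartiles of -1.68 and 0.20. Large differences were mostly on the lower side, namely 799 sequences past 8-fold (5.73%), while 72 passed 8-fold on the higher side (0.517%). At 16-fold the counts were 25 higher and 206 lower. With a stricter rule, by which the full interval lies past 2-fold, 1026 were higher (7.36%) and 4580 lower (32.9%).

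The excess of lower transcripts depended on the scale. After the median ratio was subtracted from every sequence, 3446 sequences lay 2-fold or more above 45 h (24.7%) and 3142 as far below it (22.5%). Higher sequences made up 21.2% of those past 2-fold as deposited and 52.3% after centring. Differences of at least 8-fold then numbered 246 higher and 288 lower. Either way about as many sequences were past 2-fold as within it, 55.3% as deposited and 47.3% centred. The files hold no spike-in or other measure of total RNA per cell with which to choose between the scales.

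**Figure D1:**
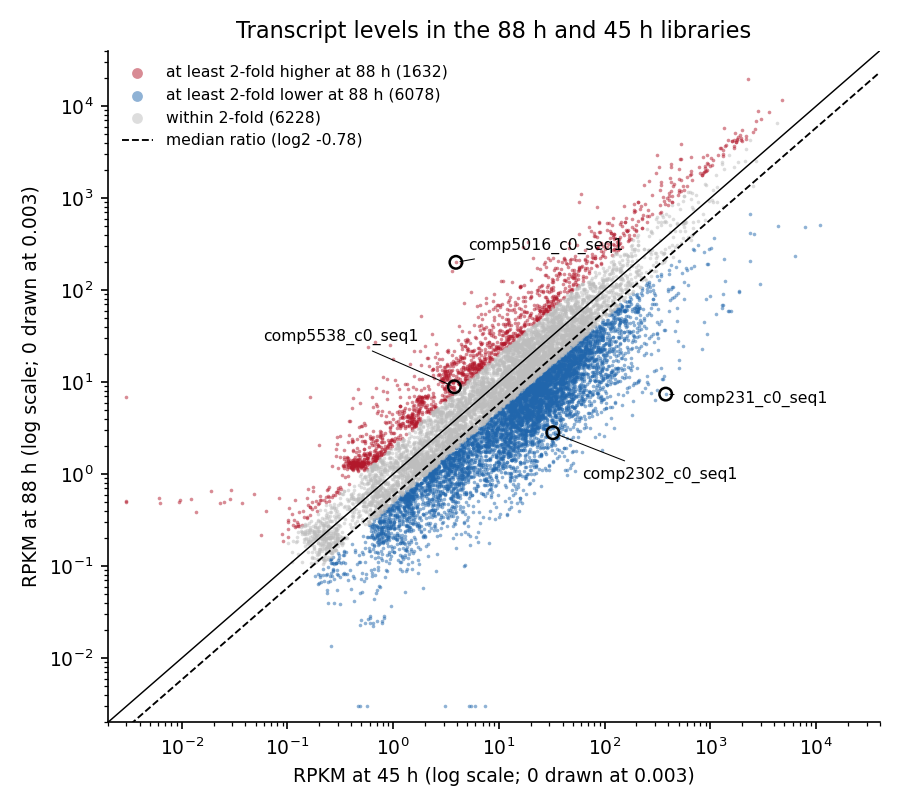
Level of each of the 13938 sequences at 88 h (vertical axis, RPKM, log scale) against 45 h (horizontal axis, RPKM, log scale), with 0 drawn at 0.003. Red points are the 1632 sequences past 2-fold on the higher side at 88 h and blue points the 6078 on the lower side, the solid line is equality, the dashed line the median log2 ratio of -0.78, and circles mark the 4 sequences named in the text. Most points lie below equality, while the highest levels at 88 h lie above it.

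The higher sequences took a larger share of the reads at 88 h than at 45 h, and the lower ones a smaller share. The 1632 higher sequences held 48.8% of the counted reads at 88 h, against 15.9% at 45 h. The 6078 lower sequences held 12.1% at 88 h, against 47.2% at 45 h. These shares describe sets chosen by the same 2 libraries and are no separate evidence. The sequences within 2-fold held 39.1% and 36.8%. In the 2 libraries that played no part in choosing the sets, the higher sequences held 17.3% of counted reads at 14 h and 45.3% at 57 h, and the lower ones 44.7% and 12.6%. The 57 h shares were thus close to those of 88 h and the 14 h shares close to those of 45 h. The median RPKM over all 13938 members was 6.42 at 88 h and 12.9 at 45 h, and 726 of all sequences reached 100 RPKM at 88 h, against 996 at 45 h.

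To see which transcripts were higher without using the compared libraries, sequences were grouped by their mean reads at 14 h and 57 h. For the 100 most abundant by that mean the median log2 ratio was 1.14, and 63 were at least 2-fold higher at 88 h while 8 were at least 2-fold lower. Across all members, 11.7% were higher and 43.6% lower. Reads at 57 h enter this ranking, and the 57 h read shares were close to those of 88 h. The ranking therefore favours sequences that were high at 88 h, and it changed the numbers. The 100 sequences most abundant at 14 h alone, a ranking added after the data were seen, gave a median of 0.85, and here 44 were higher while 22 were lower. When all members were split into 4 equal groups by the same mean of 14 h and 57 h, the groups differed little. Relative to the median of all members, their medians were 0.15, -0.07, -0.21 and 0.14 from the least to the most abundant group.

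**Figure D2:**
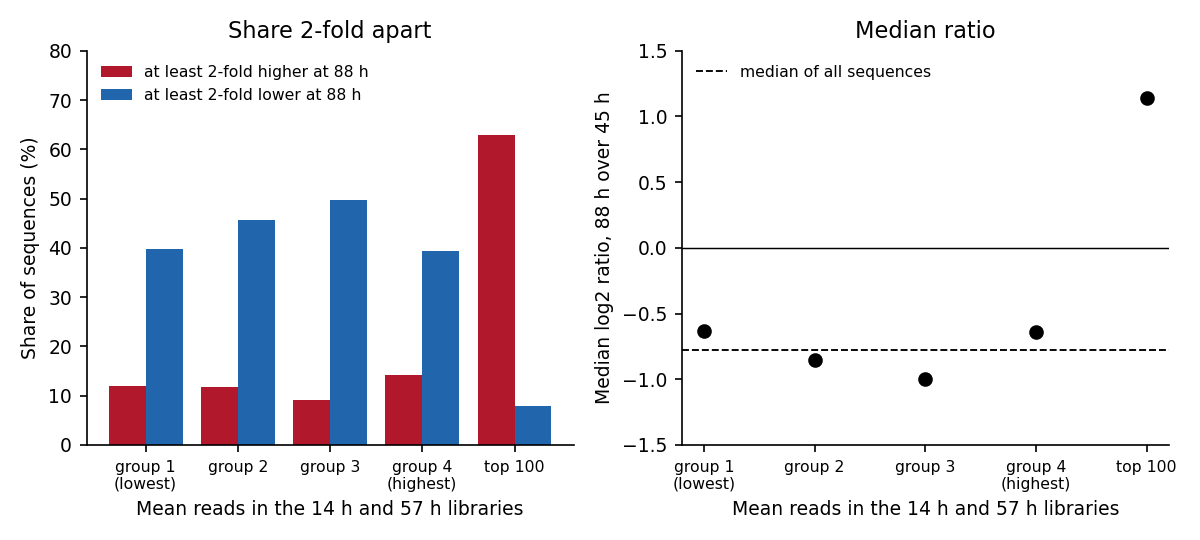
Sequences grouped by mean reads in the 14 h and 57 h libraries. The left panel gives the percentage of each group at least 2-fold higher (red) or lower (blue) at 88 h than at 45 h, and the right panel the median log2 ratio of 88 h over 45 h, with the median of all sequences dashed. In the top 100, which belong to the most abundant of the 4 equal groups, 63% were higher and 8% lower, whereas in the 4 groups 9.18% to 14.1% were higher and 39.3% to 49.8% lower. The ranking includes 57 h, and the top 100 by 14 h alone had 44% higher and 22% lower.

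Ratios varied less among long sequences than among short ones. Sequences of 351 to 1290 bases, the shortest of 4 equal groups by length, had the widest spread, with an interquartile range of 2.23 on the log2 scale, against 1.64 in the longest group of 4137 to 25689 bases. Both the higher and the lower 2-fold counts of the shortest group, 531 and 1516, were above those of the longest, 433 and 1290. The 3780 sequences in components of 10 or more had a median log2 ratio of -0.46, against -0.93 for the 7015 in components of 2 to 9 and -0.89 for the 3143 that stood alone. Relative to the median of all members these are 0.32, -0.15 and -0.11. The interquartile range was 1.75 in both kinds of shared component and 2.29 in sequences that stood alone. Sequences of 1 component may count the same reads and cannot be taken as independent.

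Members of 1 component were seldom past 2-fold on opposite sides. Of 2411 components with at least 2 members, 953 had every member at least 2-fold lower at 88 h, 142 every member at least 2-fold higher and 793 every member within 2-fold. There were 42 components with members past 2-fold on both sides.

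The lists of leading transcripts overlapped at the 2 times, but their order changed. Of the 100 sequences with the highest RPKM at 88 h and the 100 with the highest at 45 h, 65 were shared, which is 65% of each list. Of the 10 highest of each library, 5 were shared. The highest at 88 h, a sequence of 902 bases alone in its component, had 19920.5 RPKM at 88 h and 2282 RPKM at 45 h, where it ranked 21. At 14 h it had 1345 RPKM and at 57 h 22351 RPKM. The next, of 7253 bases, had 11672 RPKM at 88 h and 4764 at 45 h. A 693-base sequence ranked 3, with 8958 RPKM at 88 h and 2812 at 45 h. All 3 already lay among the 21 highest of the 45 h library, so these leaders of the 88 h library were already abundant at 45 h.

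The 3 highest sequences of the 45 h library lost that place, while 5 of its 10 highest were also among the 10 highest at 88 h. The highest there, of 1250 bases, had 512 RPKM at 88 h, against 10938 RPKM at 45 h, a log2 ratio of -4.42 (-4.45 to -4.38), and ranked 200 at 88 h. A sequence of 1280 bases had 481 RPKM at 88 h and 7829.8 at 45 h, with a ratio of -4.02 (-4.06 to -3.99). One of 1523 bases had 234 RPKM at 88 h and 6354 at 45 h, with a ratio of -4.76 (-4.80 to -4.72). Their 14 h levels had been alike, at 2265, 2022 and 2069 RPKM, so they were higher at 45 h than at 14 h and then lower at 88 h than at 14 h. Their levels at 57 h, 400.0, 378 and 136 RPKM, were already below those at 88 h. The 35 sequences in the 45 h list of 100 but not in that of 88 h had a median of 208 RPKM at 88 h and 1310.3 at 45 h. The 35 in the 88 h list only had medians of 1790.5 at 88 h and 532 at 45 h.

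Among sequences averaging at least 100 reads over the 2 libraries, the highest ratio belonged to comp5016_c0_seq1, of 387 bases, alone in its component. It had 937 reads and 200.5 RPKM at 88 h, against 18 reads and 3.92 RPKM at 45 h. The log2 ratio was 5.64 (5.01 to 6.44), or 49.8-fold. It stood at 3.31 RPKM at 14 h and 311 RPKM at 57 h, so both early libraries were low and both late ones high. The lowest ratio belonged to comp231_c0_seq1, of 2659 bases, from a component of 2 sequences. It had 238 reads and 7.41 RPKM at 88 h, against 11925 reads and 378 RPKM at 45 h. Its log2 ratio was -5.67 (-5.86 to -5.49), or 50.9-fold lower, and -4.89 after centring. At 14 h it had 136 RPKM and at 57 h 5.36 RPKM, so the 45 h level was the highest of the 4.

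A mean of at least 100 reads was reached by 9485 sequences. Of these, 11 from 8 components were 16-fold or more higher at 88 h, and 150 from 108 components were 16-fold or more lower. After centring these counts were 25 and 43. Over all 13938 members, without the limit of 100 reads, 0.179% were 16-fold or more higher and 1.48% as far lower as deposited. The 11 higher ones had RPKM values from 24.3 to 1120.1 at 88 h, with a median of 162, against 0.573 to 60.3 at 45 h, with a median of 3.92. Of these, 9 were within 2-fold of their 14 h level at 45 h, where 83.6% of all members were, and all 11 were at least 2-fold above it at 88 h, as were 14.5% of all members. The most abundant of them, of 2161 bases, had 29234 reads at 88 h and 1548 at 45 h. The 150 lower ones ranged from 0.335 to 512 RPKM at 88 h, with a median of 2.57, and from 7.1 to 10938 RPKM at 45 h, with a median of 59.8. Of these, 91 had been at least 2-fold above 14 h at 45 h, and 149 were at least 2-fold below 14 h at 88 h, against 10.8% and 44% of all members. Choosing a sequence for an extreme 88 h to 45 h ratio favours extreme readings in both libraries, so these counts only describe the sets.

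**Figure D3:**
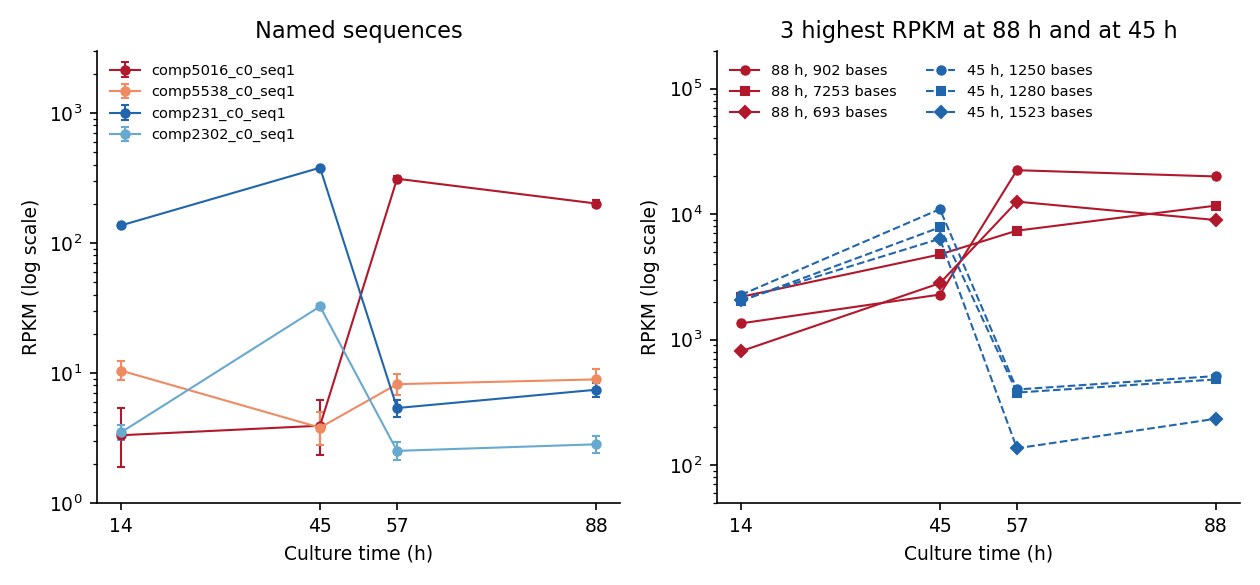
RPKM (log scale) at the 4 culture times. The left panel shows the 4 named sequences with 95% Poisson counting intervals, and the right panel the 3 sequences with the highest RPKM at 88 h (red, solid) and at 45 h (blue, dashed), labelled by length. The leaders of the 88 h library were between 2282 and 4764 RPKM at 45 h, while those of the 45 h library were between 234 and 512 RPKM at 88 h.

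Transcripts near absent in one library and abundant in the other were very few. With near absent taken as at most 3 reads, the number that a count of 0 still allows, and abundant as at least 100 reads, 0 sequences were near absent at 45 h and abundant at 88 h. In the other direction, 2 sequences were near absent at 88 h and abundant at 45 h. These 2 belong to 1 component of 5 sequences and are 1341 and 1406 bases long. Each had 3 reads at 88 h, against 101 and 134 reads at 45 h. Their log2 ratios were -4.88 (-7.40 to -3.51) and -5.29 (-7.80 to -3.93). They had 178 and 233 reads at 14 h and 8 and 11 at 57 h, so they were lower at each later time. The 706-base sequence of this component had 0 reads at 88 h and 50 at 45 h, and over all 5 sequences the reads summed to 7 at 88 h and 333 at 45 h. No sequence with 0 reads in one library reached 100 in the other. The 8 members at 0 reads at 88 h had at most 50 reads at 45 h, and the 3 members at 0 reads at 45 h had at most 40 at 88 h.

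A looser rule of at most 10 reads against at least 100 gave 6 sequences from 4 components that were scarce at 45 h and 41 from 32 components that were scarce at 88 h. The 6 had 111 to 345 reads at 88 h, against 7 to 10 at 45 h, and were 360 to 1176 bases long. Their RPKM was 21.6 to 33.1 at 88 h, against 0.573 to 2.34 at 45 h. All 6 also had at least 114 reads at 57 h, and 3 to 19 at 14 h. The 41 had 3 to 10 reads at 88 h, against 100 to 356 at 45 h. They had 9 to 476 reads at 14 h, with a median of 88, and at most 20 at 57 h. Thus in both sets the 57 h count, which was not used to choose them, was nearer to the 88 h count than to the 45 h count for every sequence. The 57 h read shares described above were close to those of 88 h in general. This nearness is therefore not particular to these sets, and the share of all members with it was not computed.

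One long set of sequences appeared only when the upper limit was lowered. With at most 3 reads against at least 50, 7 sequences were near absent at 45 h, and all 7 belong to 1 component of 14 sequences with lengths up to 13828 bases. They had 54 to 93 reads at 88 h, against 1 to 3 at 45 h. Reads over the whole component summed to 711 at 88 h and 22 at 45 h. The sums were 22 at 14 h and 487 at 57 h. Their length makes the level low even at 88 h, at 0.483 to 0.648 RPKM, and the 14 sequences may count the same reads. In the other direction the limit of 50 reads gave 16 sequences from 12 components.

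**Figure D4:**
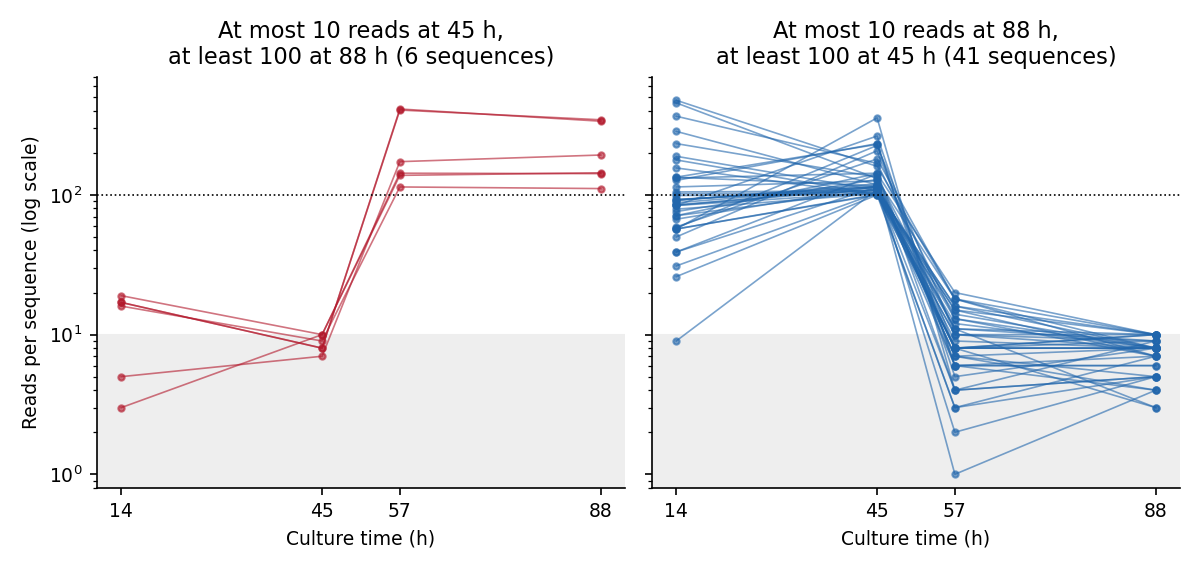
Reads per sequence (log scale) at the 4 culture times for the 6 sequences with at most 10 reads at 45 h and at least 100 at 88 h (left) and the 41 with at most 10 reads at 88 h and at least 100 at 45 h (right). The grey band covers up to 10 reads and the dotted line marks 100. At 57 h all 6 sequences on the left had more than 100 reads. Of the 41 on the right, 26 were inside the band at 57 h and all had at most 20 reads there. At 14 h, 1 of the 41 was inside the band.

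A return toward the 14 h level was then examined among the sequences that had departed from it at 45 h. Of the 13938 members, 1510 were at least 2-fold above 14 h at 45 h (10.8%) and 771 at least 2-fold below (5.53%). The ratios of 45 h to 14 h and of 88 h to 45 h share the 45 h library, so a reading there that is too high or too low by counting error gives a departure and a return at once. No correlation between them is given. The sequences, called rises and dips here by size alone, were sorted by where the 88 h level lay.

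Of the 1510 raised at 45 h, 535 (35.4%) were within 2-fold of 14 h at 88 h. A further 395 (26.2%) had passed the 14 h level and were at least 2-fold below it. Another 75 were nearer to 14 h but still 2-fold above it, and 505 (33.4%) were no nearer than at 45 h. Among the 771 lowered at 45 h, return was less common, with 130 (16.9%) within 2-fold of 14 h, 21 at least 2-fold above it, 31 nearer, and 589 (76.4%) no nearer. For comparison, 41.5% of all members were within 2-fold of 14 h at 88 h, and so were 43.9% of the 11657 members that had stayed within 2-fold of 14 h at 45 h. The shares of 35.4% and 16.9% were both below these. Being within 2-fold of 14 h at 88 h was thus not more common in sequences that had departed from it at 45 h. Both ratios to 14 h share the 14 h library, however. A 14 h reading too high or too low by counting error gives a departure at 45 h and a distance at 88 h together. The lower shares therefore only describe these sets.

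Each comparison with 14 h was also centred on its own median log2 ratio over all members, -0.01 for 45 h and -0.78 for 88 h. On that scale 538 of 1529 raised sequences (35.2%) and 214 of 749 lowered ones (28.6%) were within 2-fold of 14 h at 88 h, against 50% of all members. Those past the 14 h level by 2-fold numbered 215 (14.1%) after a rise and 46 (6.14%) after a dip, and those no nearer numbered 660 (43.2%) and 429 (57.3%). Centring thus hardly moved the count of returned rises and moved the other classes more. The returned rises were not the same set on both scales. Their median level at 14 h was 5.19 RPKM as deposited and 6.35 RPKM after centring.

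**Figure D5:**
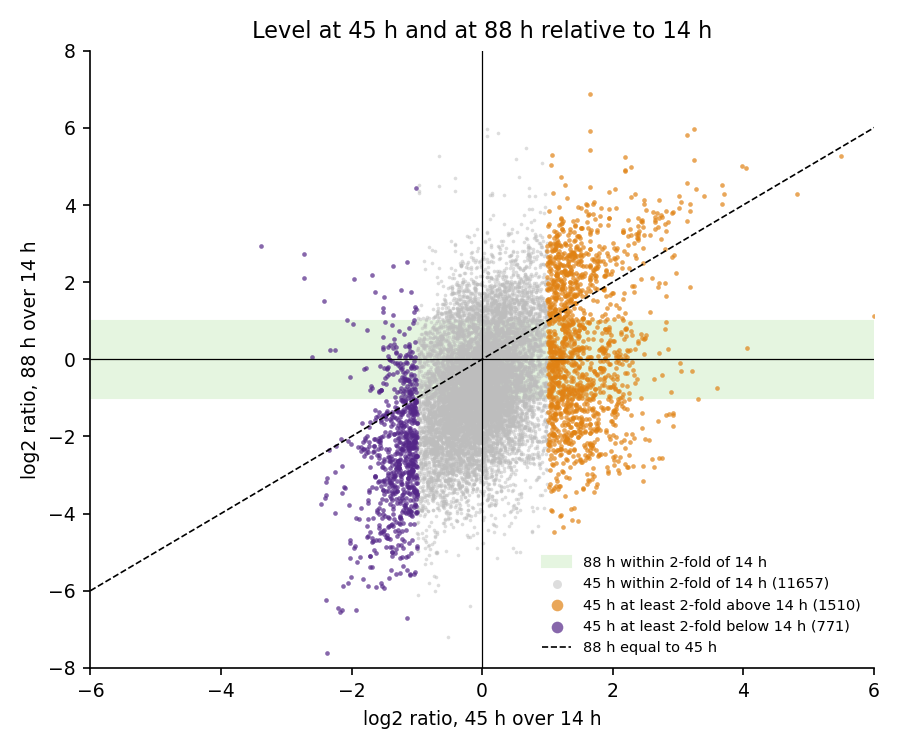
Each of the 13938 sequences by its log2 ratio of 45 h to 14 h (horizontal) and of 88 h to 14 h (vertical). Orange points were at least 2-fold above 14 h at 45 h (1510) and purple points at least 2-fold below (771), the green band marks 88 h levels within 2-fold of 14 h, and the dashed line marks equal levels at 88 h and 45 h. Orange points lie above, in and below the band, while most purple points lie below it.

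A stricter rule on the departure left few returned dips. When the whole interval of the 45 h to 14 h ratio had to lie beyond 2-fold, 785 sequences were raised, of which 294 (37.5%) were within 2-fold of 14 h at 88 h and 267 past it. By the same rule 329 were lowered, with 15 (4.56%) back within 2-fold and 2 past it. These counts are on the deposited scale, where the median log2 ratio of 88 h to 14 h was -0.78. Such a shift lowers the count of returned dips and raises that of rises past 14 h. The stricter rule was not repeated after centring. Returned rises and returned dips had similar median levels outside the 45 h library that set them apart, namely 5.19, 3.96 and 4.62 RPKM in the rises and 4.16, 4.21 and 3.8 RPKM in the dips, in order of time. At 57 h, which entered neither choice, 400 of the 535 returned rises (74.8%) and 116 of the 130 returned dips (89.2%) were within 2-fold of 14 h. The share over all members was 43.2%, and the sets share the 14 h library with this reading. They were also chosen for lying near 14 h at 88 h, and the 57 h read shares described above were close to those of 88 h. A high share at 57 h was thus favoured by the choice and is no separate evidence of return.

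Abundant transcripts were found in each class after a rise. Among those back within 2-fold, the most abundant, of 2813 bases, had RPKM values of 640.5, 2598, 406 and 408 in order of culture time. A 5290-base sequence, comp2302_c0_seq1, had the largest rise among 125 sequences with at least 100 reads on average at 14, 45 and 88 h that ended close to their 14 h level. In order of time its reads were 230, 2034, 161 and 180, or 3.48, 32.4, 2.51 and 2.82 RPKM. The 88 h level over the 45 h level gave a log2 ratio of -3.52 (-3.75 to -3.30), and over the 14 h level one of -0.30 (-0.59 to -0.02). Closeness to 14 h, a log2 ratio of at most 0.32 in size, was judged on the deposited scale. Centring on the median of -0.78 would take this sequence outside that limit. The 45 h reading stood 9.29-fold above 14 h and alone among the 4. The 3 leaders of the 45 h library described above were the 3 most abundant of those that passed the 14 h level. Among those no nearer was the 7253-base sequence that ranked second at 88 h, at 2187, 4764, 7374 and 11672 RPKM over the 4 times.

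Returned dips included abundant transcripts too. The most abundant, of 374 bases, had 1298, 618, 1019 and 1166 RPKM over the 4 times. One of 3685 bases had 307, 119, 283 and 374 RPKM. Of 13 candidates under the rule used above for rises, comp5538_c0_seq1, of 1089 bases and from a component of 4 sequences, had the deepest dip. Over the 4 times its reads were 142, 49, 108 and 117, or 10.4, 3.79, 8.18 and 8.9 RPKM. The 88 h level over the 45 h level gave a log2 ratio of 1.22 (0.74 to 1.74), and the 45 h level over the 14 h level one of -1.45 (-1.96 to -0.98), whose interval reaches inside 2-fold. Centring would take this sequence outside the limit for closeness to 14 h as well. A transcript that went on down was a 927-base sequence with 2689.8, 871, 29.8 and 45.1 RPKM. Between 88 h and 45 h it had a log2 ratio of -4.27 (-4.40 to -4.14).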

How the data were processed

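RNA sequencing libraries of 4 culture times were used, 1 per time, grouped by the labelled time. The submitters' processing notes list BWA, a read aligner, with no version or role. Not given in the sources used here are the reference, read filters, strand setting and handling of multiply matching reads. Per the file headers, the deposited values are a read count per sequence, the library total, the sequence length and an RPKM. The RPKM that the authors deposited equalled the count scaled by length and stated total, within 3.8e-11. Counts on sequences summed to 1.27 (88 h) and 1.36 (45 h) times the stated totals, and the files do not say why.

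The log2 ratio used reads plus 0.5 over the stated total, a floor of a mean of 10 reads and a size rule of 2-fold. Its interval was run only on simulated independent Poisson counts. These hold no reads shared between sequences and no difference in preparation, so the run checks the calculation and not the intervals of these libraries. Members, sets and settings were chosen with earlier results of these data known. The rule for named sequences took the highest and lowest 88 h to 45 h ratio at a mean of at least 100 reads, and the deepest dip and largest rise at 45 h whose 88 h to 14 h log2 ratio was at most 0.32 in size on the deposited scale. Alternatives were TMM and median-of-ratios scaling, other totals, floors, pseudocounts and limits, interval rules and 1 sequence per component. TMM factors came from edgeR 4.0.16 under R 4.3.3, and all other values from Python 3.11.15 with scipy 1.17.1, pandas 2.3.3, numpy 2.4.6 and, for figures, matplotlib 3.10.9.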

Additional observations from a re-analysis of the deposited data

How the results depend on the processing

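Alternative settings gave 58 counts, and 32 of them were no more than 1.5 times away from the value in the report. TMM scaling gave 3347 sequences higher and 3222 lower at 88 h, and 210 dips at 45 h back within 2-fold of 14 h. Median-of-ratios factors gave 3414, 3166 and 217. Both place the typical sequence near no change by construction. Requiring the whole interval past 2-fold left 1026 higher at 88 h, with 294 rises and 15 dips back. The setting with 1 sequence per component kept the sequence with the most reads summed over all libraries, and 5573 entered. The counts were then 666 higher and 2659 lower, and 1453 and 1398 after centring. There were 239 rises and 49 dips back, and 1 sequence near absent at 88 h and abundant at 45 h. Returned dips numbered 202 with no floor, 64 with a floor of 50 reads and 214 after centring, an alternative added after seeing the data. The sets near absent at 45 h and at 88 h held 6 and 41 sequences with at most 10 against at least 100 reads, 7 and 16 with at most 3 against at least 50, and 1 and 4 with at most 0.1 against at least 5 RPKM. With 0 reads required, 0 sequences were near absent at 88 h and abundant at 45 h. The log2 ratio of comp5016_c0_seq1 ranged from 5.33 with a pseudocount of 5 reads to 6.42 after centring, and those of comp231_c0_seq1, comp5538_c0_seq1 and comp2302_c0_seq1 with TMM scaling were -4.91, 1.98 and -2.76. Leaving out a library was not possible. No paired analysis was possible because there are no replicates. Depth limits the near absent sets, since a count of 0 allows up to 3 reads.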

Other observations

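In some components the sequence with the highest RPKM was not the same at 88 h as at 45 h. This held for 660 of the 2411 components with at least 2 members. In 39 of these, the 2 leading sequences had log2 ratios at least 2 apart with separate counting intervals, and each had at least 100 reads where it led. The leaders were picked from the same 2 libraries, so the direction of the gap is fixed by the choice. The intervals are thus no separate evidence of a change. The widest gap, of 7.21, was in a component with 4 members. Its 2293-base sequence had 60.3 RPKM at 88 h and 9.59 at 45 h, while its 1345-base sequence had 0.800 RPKM at 88 h and 19.5 at 45 h. Over the 4 times the longer sequence stood at 15.4, 9.59, 42.7 and 60.3 RPKM, and the shorter at 74.9, 19.5, 0.797 and 0.800 RPKM. In a component with 3 members, the 2255-base sequence had 30 RPKM at 88 h and 18.5 at 45 h, and the 1324-base one 4 RPKM at 88 h and 52.8 at 45 h. Whether such pairs are variants of 1 gene or sequences of different genes joined by the assembly was not tested.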
